A study of Homo sapiens with 6 samples.

Results

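The AP-1 and EGR transcription factors were described here as 10 genes of the 58735 in the table, chosen by name: the JUN family (JUN, JUNB, JUND), the FOS family (FOS, FOSB, FOSL1, FOSL2), ATF3, EGR1 and EGR3. The 6 RNA libraries came from AsPC-1, a long-established line of human pancreatic cancer cells. The Vector group (n = 3) carried an empty lentivirus and the OE-MMP28 group (n = 3) a lentivirus with the MMP28 coding sequence, MMP28 being a secreted matrix metalloproteinase. In the study's methods the MMP28 virus also carried GFP and puromycin resistance, and infected cells were selected from 48 h on with puromycin at 2 µg/mL. Neither the time from selection to harvest nor any cloning of the cells was given in the sources used here, while the methods state triplicate samples per group and, for cell experiments in general, independent repeats. Whether these RNA libraries came from separate cultures was not given, so the p-values below measure only the spread between these libraries, which may be technical. The comparison asked which of these factors differed between the groups, since the study examined MAP kinase signalling downstream of MMP28.

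AP-1 is a dimer of basic leucine zipper proteins. JUN proteins can pair with each other or with a FOS protein, whereas FOS proteins need a JUN partner, and the dimers bind the AP-1 site of many growth and matrix genes. JNK, ERK and p38 act on the pathway both through phosphorylation of the proteins and through transcription of the genes, the latter by way of serum response factor (SRF) and its ETS partners. EGR1 and EGR3 are zinc finger factors that bind GC-rich sites and are held in check by the NAB corepressors. Most of these genes are immediate-early genes, whose short-lived transcripts rise within minutes of a growth factor, cytokine or stress signal. FOSL1 and FOSL2 are later and more lasting members of the FOS family.

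Promoter stretches are shown for 4 of the genes whose levels went up and down together between libraries, as described further on. JUN, JUND and ATF3 also went with FOS, more closely than JUNB did, and their stretches are not shown. Each stretch is the 250 bases before the RefSeq transcription start (build GRCh38.p14), 5′ to 3′. Capitals mark a TATA box in FOS, FOSB and JUNB and CArG boxes, the sites SRF binds, in EGR1.
FOS chr14:75278578-75278827, plus strand: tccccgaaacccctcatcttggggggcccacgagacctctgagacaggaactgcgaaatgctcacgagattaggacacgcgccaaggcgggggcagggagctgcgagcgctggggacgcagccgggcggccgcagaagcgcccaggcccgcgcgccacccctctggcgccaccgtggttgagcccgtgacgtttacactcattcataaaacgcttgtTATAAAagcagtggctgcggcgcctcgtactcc
FOSB chr19:45467746-45467995, plus strand: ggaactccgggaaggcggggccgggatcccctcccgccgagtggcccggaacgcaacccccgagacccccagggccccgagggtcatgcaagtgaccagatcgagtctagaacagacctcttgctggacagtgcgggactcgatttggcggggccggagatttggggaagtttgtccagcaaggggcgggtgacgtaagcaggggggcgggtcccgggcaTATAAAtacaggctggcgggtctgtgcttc
JUNB chr19:12791236-12791485, plus strand: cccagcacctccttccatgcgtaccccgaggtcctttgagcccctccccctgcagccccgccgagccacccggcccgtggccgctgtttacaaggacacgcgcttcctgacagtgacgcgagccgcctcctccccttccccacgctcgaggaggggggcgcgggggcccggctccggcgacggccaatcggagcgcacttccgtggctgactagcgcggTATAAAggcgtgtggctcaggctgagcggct
EGR1 chr5:138465229-138465478, plus strand: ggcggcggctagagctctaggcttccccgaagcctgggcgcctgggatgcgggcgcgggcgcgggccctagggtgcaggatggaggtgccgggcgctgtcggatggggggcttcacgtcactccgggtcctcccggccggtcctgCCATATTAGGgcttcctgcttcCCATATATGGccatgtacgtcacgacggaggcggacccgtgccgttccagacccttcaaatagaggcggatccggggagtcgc
Of the 10 genes, 8 had a RefSeq window that was searched (JUN, JUNB, JUND, FOS, FOSB, FOSL2, ATF3 and EGR1), from 250 bases before to 50 bases after the start. FOSL1 was missing from the table, and EGR3 was not searched. The motifs were the AP-1 site TGACTCA, the cyclic AMP response element TGACGTCA, the EGR site GCGTGGGCG, the TATA box TATAAA and the CArG box, each on both strands. The TATA box lay between positions -33 and -25 in FOS, FOSB and JUNB, counted back from the start, and was held by 11.5% of all 35116 windows. ATF3 had 2 windows, and 1 of them held TATAAA at -230 to -225. The EGR1 window held 2 CArG boxes, at -105 to -96 and -83 to -74, and 1.29% of all windows held at least 1. JUND held the cyclic AMP response element at -200 to -193 (1.85% of all windows). FOSL2 held an AP-1 site from 5 to 11 bases after the start (4.95% of all windows). The EGR site was in 0.795% of all windows and in none of those searched, and the JUN window held no match to any of the 5 motifs. A match is a run of letters and does not show that a factor was bound. Sites outside these windows were not searched, so a window without a match does not show that the gene lacks the site.

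The libraries held between 13633249 and 16691458 counted reads, with totals that did not overlap between the groups, so all comparisons were made on scaled values. FPKM, the deposited fragments per length of gene, scaled to the library total, is used for levels, and log2 differences come from the counts. MMP28 differed by 0.90 (log2, OE-MMP28 minus Vector, SE 0.19, adjusted p = 0.00226; the test throughout was the quasi-likelihood test of edgeR, with Benjamini-Hochberg adjustment over the 15319 genes tested). Mitochondrial genes took between 11.9% and 14.8% of the reads in Vector and between 8.8% and 11.9% in OE-MMP28. Summed over 5 epithelial markers (KRT8, KRT18, KRT19, EPCAM, CDH1) the level was 2578 to 3518 FPKM in Vector and 3516 to 4303 FPKM in OE-MMP28, with KRT19 called higher and CDH1 called lower. The 4 leukocyte markers summed to at most 1.14 FPKM in any library with CD3E at 0 in all, the 4 fibroblast markers to at most 0.144 FPKM, and the 3 endothelial markers to at most 0.170 FPKM in Vector and between 0.179 and 0.293 FPKM in OE-MMP28. Of these, PECAM1 was called higher, with 0, 4 and 4 reads in Vector and 13, 21 and 30 reads in OE-MMP28 (adjusted p = 0.00361). The part of mitochondrial share and of epithelial and endothelial markers in the results was not tested. In bulk RNA, fewer cells that express a gene and less RNA per cell cannot be told apart.

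All 10 genes passed the filter on low counts and were tested. In OE-MMP28 cells FOS, FOSB, FOSL1 and EGR3 were higher and FOSL2 was lower at an adjusted p under 0.05, and JUN, JUNB, JUND, ATF3 and EGR1 did not pass the test. Thus 4 of 10 rose, where 11.7% of all genes tested rose, and 1 of 10 fell, where 11.6% fell. In either direction 5 of 10 were called against 23.4% of all genes. The 10 genes were chosen with earlier results of these data known, so this comparison with all genes is a description only. The same 4 genes had every OE-MMP28 library above every Vector library in FPKM, which held for 19.0% of all genes, and FOSL2 had them all below, which held for 19.1%. The median log2 difference was 0.46 over the 10 genes and 0.01 over all genes tested. The number called depended on the libraries: without Vector replicate 2 it was 8, with EGR1, JUNB and ATF3 also higher. In that fit 1493 of all 15662 genes tested were higher and 1436 lower. On the counts edgeR, DESeq2 and limma voom each called 5. On the deposited FPKM, limma on log2(FPKM + 1) called FOSL1 and FOSL2 with a filter of its own at a mean of 0.5 FPKM, which EGR3 did not pass, and without a filter it called 0 of the 10, with 5 at an unadjusted p under 0.05. Over all genes the filtered limma fit called 1009 of 15218 higher and 965 lower, and the unfiltered fit 362 of 30568 higher and 308 lower.

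**Figure D1:**
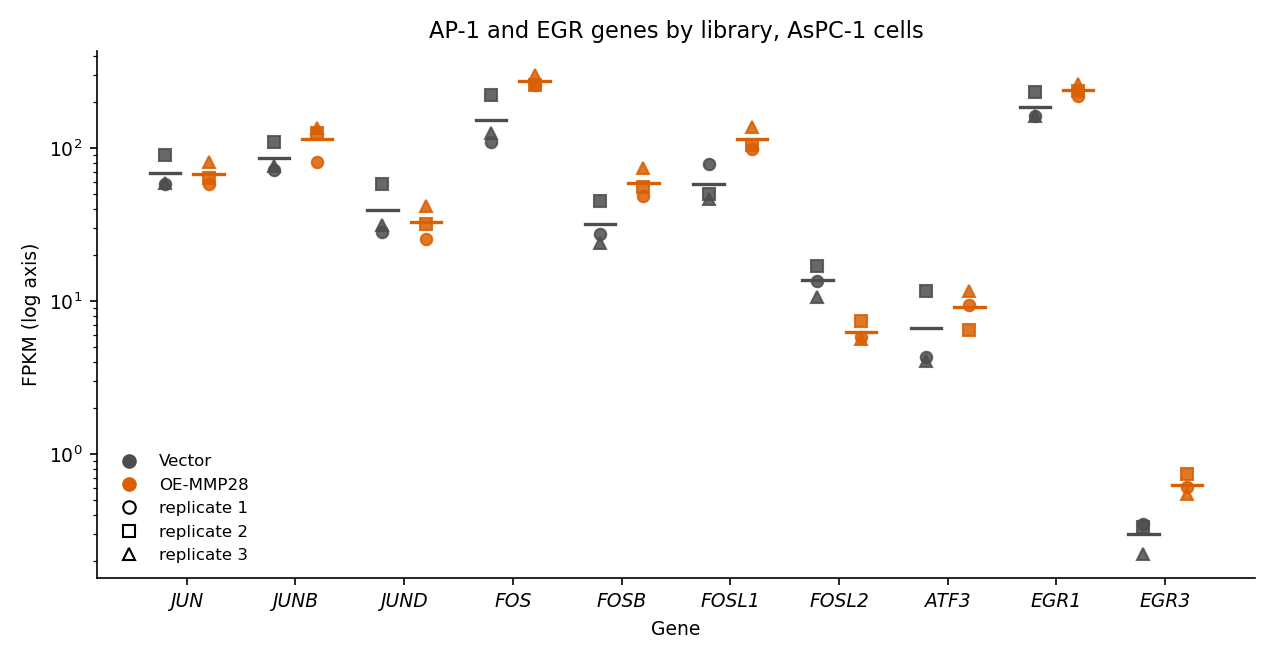
FPKM of each of the 10 genes on a log axis in the 3 Vector (grey) and 3 OE-MMP28 (orange) libraries, the symbol giving the replicate number and the short line the group mean. The orange points lie above all grey points for FOS, FOSB, FOSL1 and EGR3 and below them for FOSL2, and replicate 2 is the highest grey point for 8 of the 10 genes.

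The JUN family is the obligate side of the dimer. JUN (ENSG00000177606, chromosome 1, 58780788 to 58784327, minus strand; all gene coordinates are GRCh38 with GENCODE 29) encodes c-Jun, the main substrate of JNK among these proteins. Its level was 58.2, 90.0 and 58.8 FPKM in Vector replicates 1, 2 and 3 and 58.2, 64.2 and 81.9 FPKM in OE-MMP28 replicates 1, 2 and 3. The ranges overlapped almost wholly, and Vector replicate 2 was the highest of all 6 libraries. The log2 difference was -0.01 (SE 0.18, adjusted p = 0.987, edgeR), and leaving out 1 library moved it between -0.16 and 0.23, so that its sign was not settled.

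JUNB (ENSG00000171223, chromosome 19, 12791496 to 12793315, plus strand) encodes a JUN protein that activates transcription less strongly than c-Jun in many settings. It stood at 71.7, 110 and 76.3 FPKM in Vector and at 80.9, 127 and 136 FPKM in OE-MMP28. OE-MMP28 replicate 1 lay within the Vector range and the other two libraries lay above it. JUNB differed by 0.42 on the log2 scale (SE 0.19, adjusted p = 0.121, edgeR). It passed the test without Vector replicate 2 (0.64, adjusted p = 0.0130) and without OE-MMP28 replicate 1 (0.61, adjusted p = 0.0299). In the other fits that left out 1 library JUNB differed by 0.28 to 0.35 (adjusted p = 0.282 to 0.399, edgeR). Exons of HOOK2 on the opposite strand cover 14.2% of the JUNB exon bases, and whether counting used the strand was not given in the sources used here, so reads of that stretch cannot be assigned with certainty.

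JUND (ENSG00000130522, chromosome 19, 18279760 to 18281622, minus strand) is the JUN gene least dependent on acute signals. It measured 28.5, 58.3 and 31.3 FPKM in Vector and 25.7, 31.9 and 41.9 FPKM in OE-MMP28. Vector replicate 2 again exceeded every other library. The log2 difference of -0.23 (SE 0.23, adjusted p = 0.499, edgeR) became 0.16 without Vector replicate 2.

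FOS (ENSG00000170345, chromosome 14, 75278774 to 75282230, plus strand) encodes c-Fos, the textbook immediate-early partner of c-Jun. Its level was 110, 223 and 127 FPKM in Vector replicates 1, 2 and 3, from 5447, 9742 and 6037 reads. In OE-MMP28 it was 258, 258 and 302 FPKM, from 13230, 13260 and 16464 reads. Every OE-MMP28 library lay above every Vector library, although Vector replicate 2 came close to them and held nearly all the spread of its group, 153 ± 60.8 FPKM (SD, n = 3) against 273 ± 25.3 FPKM (SD, n = 3). The log2 difference was 0.85 (SE 0.20, adjusted p = 0.00450, edgeR), and 0.66 to 1.22 in the fits that left out 1 library, each with an adjusted p under 0.05.

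The genes around FOS were also higher. The 77 tested genes within 5 Mb of FOS on either side had a median log2 difference of 0.62, a local median that only 1.06% of genes reached or exceeded, where 5% of genes lay below -0.46 and 5% above 0.48. Measured relative to this local median, the FOS difference was 0.22 with an adjusted p of 0.493 (edgeR). FOS therefore rose relative to the whole transcriptome, but its difference from its own neighbours did not pass the test.

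FOSB (ENSG00000125740, chromosome 19, 45467995 to 45475179, plus strand) is a close relative of FOS that is induced with it. It was at 27.5, 45.0 and 24.2 FPKM in Vector and at 48.5, 56.1 and 73.8 FPKM in OE-MMP28, from 1979 to 6893 reads per library. The groups did not overlap, with Vector replicate 2 just under OE-MMP28 replicate 1. FOSB differed by 0.90 on the log2 scale (SE 0.20, adjusted p = 0.00330, edgeR), and the median of its 221 neighbours was 0.06.

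FOSL1 (ENSG00000175592, chromosome 11, 65892049 to 65900573, minus strand) encodes FRA-1, which lacks the activation domain of c-Fos and is often high in invasive carcinoma cells. Its level was 78.6, 50.4 and 46.6 FPKM in Vector and 99.3, 105 and 138 FPKM in OE-MMP28, from 1285 to 4396 reads per library. All 3 OE-MMP28 libraries were above the Vector libraries, and here Vector replicate 1, not replicate 2, was the highest of its group. The log2 difference was 0.98 (SE 0.19, adjusted p = 0.00100, edgeR), with a median of 0.26 over its 243 neighbours. Relative to that local median FOSL1 was still higher, by 0.71 on the log2 scale (adjusted p = 0.0137, edgeR).

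FOSL2 (ENSG00000075426, chromosome 2, 28392448 to 28417312, plus strand), which encodes FRA-2, moved the other way. It was at 13.5, 17.0 and 10.7 FPKM in Vector, from 1479, 1645 and 1125 reads, and at 5.85, 7.39 and 5.65 FPKM in OE-MMP28, from 662, 838 and 680 reads. Every OE-MMP28 library lay below every Vector library. The log2 difference of -1.11 (SE 0.18, adjusted p = 0.000184, edgeR) had the smallest adjusted p of the 10 genes. Its 83 neighbours had a median of -0.55, a value that 1.77% of genes were at or under, and relative to it the FOSL2 difference was -0.57 (adjusted p = 0.0347, edgeR).

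ATF3 (ENSG00000162772, chromosome 1, 212565334 to 212620777, plus strand) encodes a stress-induced leucine zipper protein that pairs with JUN proteins and often represses. It was at 4.31, 11.6 and 4.08 FPKM in Vector and at 9.47, 6.50 and 11.8 FPKM in OE-MMP28. Vector replicate 2 reached the level of the highest OE-MMP28 library. For ATF3 the log2 difference was 0.49 (SE 0.29, adjusted p = 0.242, edgeR), the widest error among the 10 genes apart from EGR3, and without Vector replicate 2 it was 1.15 (adjusted p = 0.000200). In the other fits that left out 1 library the ATF3 difference was 0.23 to 0.67 (adjusted p = 0.182 to 0.636, edgeR).

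EGR1 (ENSG00000120738, chromosome 5, 138465490 to 138469315, plus strand) is a serum and stress response gene whose promoter CArG boxes are printed above. Its level was 163, 232 and 163 FPKM in Vector and 221, 236 and 263 FPKM in OE-MMP28. Only Vector replicate 2 overlapped the OE-MMP28 range, lying above OE-MMP28 replicate 1. The log2 difference was 0.38 (SE 0.16, adjusted p = 0.0905, edgeR), and 0.57 (adjusted p = 0.00888) without Vector replicate 2. EGR1 did not pass in the other fits that left out 1 library, with differences down to 0.29 and adjusted p up to 0.328 (edgeR).

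EGR3 (ENSG00000179388), a target of EGR1 in several tissues, was expressed at a far lower level. It had 26, 22 and 16 reads in Vector and 47, 57 and 45 reads in OE-MMP28, or 0.350, 0.335 and 0.224 FPKM against 0.612, 0.741 and 0.551 FPKM. The groups did not overlap. The log2 difference was 1.07 (SE 0.33, adjusted p = 0.0228, edgeR), while its 63 neighbours had a median of -0.36. With so few reads the call was lost without Vector replicate 3 (0.90, adjusted p = 0.118) and without OE-MMP28 replicate 2 (0.93, adjusted p = 0.121). An exon on the opposite strand, of the transcript AC055854.1, covers 3.38% of the EGR3 exon bases.

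**Figure D2:**
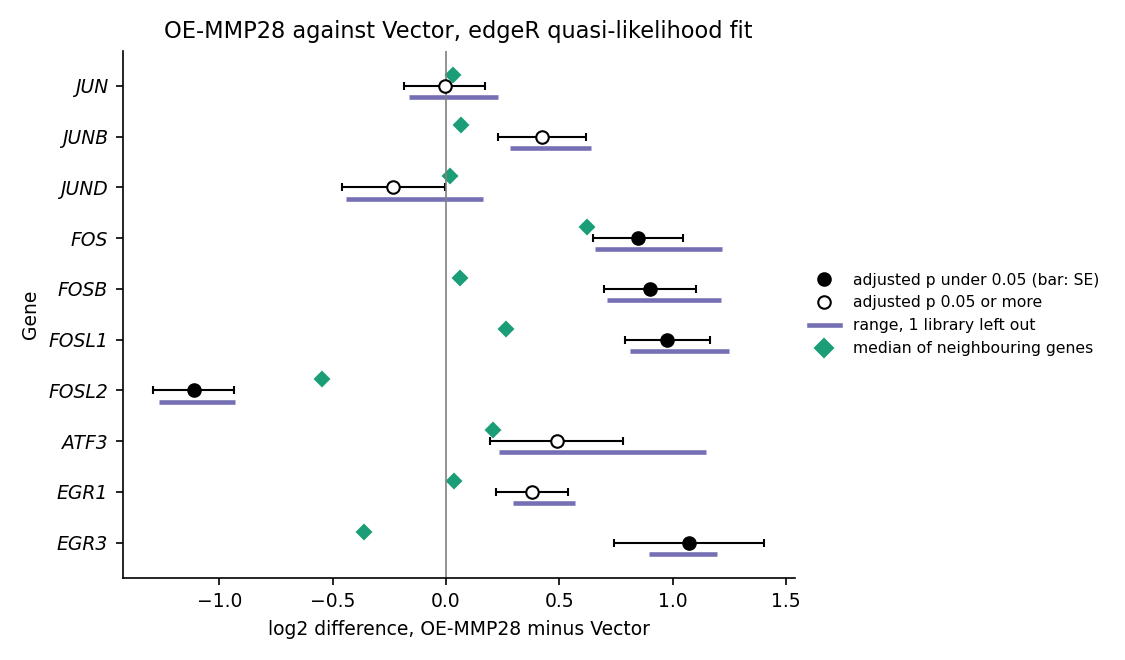
log2 difference, OE-MMP28 minus Vector, for each of the 10 genes (circle, with SE; filled where the adjusted p was under 0.05), the range of the difference when 1 library was left out (purple line) and the median difference of neighbouring genes within 5 Mb (green diamond). The diamond sits beside the circle for FOS (0.62 and 0.85) and lies on the same side of 0 as the circle for FOSL2 (-0.55 and -1.11), and the ranges of JUN and JUND cross 0.

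Levels per length differed widely among the 10 genes. EGR1 and FOS ranked within the first 258 of 58735 genes in every library, JUNB within the first 442, whereas EGR3 ranked between 13542 and 18053. In Vector the order of mean FPKM was EGR1, FOS, JUNB, JUN, FOSL1, JUND, FOSB, FOSL2, ATF3 and EGR3. Neighbours in this order overlapped in range except FOSB with FOSL2 and ATF3 with EGR3. In OE-MMP28 the order was FOS, EGR1, JUNB, FOSL1, JUN, FOSB, JUND, ATF3, FOSL2 and EGR3. There EGR1 lay wholly above JUNB, FOSL1 above JUN, FOSB above JUND, JUND above ATF3 and FOSL2 above EGR3, and the other neighbours overlapped. In the order of means EGR1 and FOS had thus changed places, as had FOSL1 and JUN, FOSB and JUND, and ATF3 and FOSL2. The change did not hold in every library for FOSL1 and JUN or for ATF3 and FOSL2. FOSL1 was already above JUN in Vector replicate 1 (78.6 against 58.2 FPKM). ATF3 was still under FOSL2 in OE-MMP28 replicate 2 (6.50 against 7.39 FPKM).

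The make-up of the FOS family shifted with these changes. Its summed level was 230, 335 and 208 FPKM in Vector and 412, 427 and 520 FPKM in OE-MMP28, with no overlap. FOS held 58.4% ± 9.51 (SD, n = 3) of that sum in Vector and 60.5% ± 2.30 in OE-MMP28, a difference below the spread within Vector. FOSL2 held 5.89%, 5.08% and 5.13% in Vector and 1.42%, 1.73% and 1.09% in OE-MMP28. FOSL2 was the only family member whose share did not overlap between the groups. The ratio of FOSL1 to FOSL2 was 5.81, 2.96 and 4.37 in Vector and 17.0, 14.2 and 24.5 in OE-MMP28, again without overlap.

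The JUN family sums overlapped, at 158, 259 and 166 FPKM in Vector and 165, 223 and 259 FPKM in OE-MMP28. Within it JUNB held 45.3%, 42.6% and 45.9% in Vector and 49.1%, 56.9% and 52.3% in OE-MMP28. JUND held 18.0%, 22.6% and 18.8% in Vector and 15.6%, 14.3% and 16.2% in OE-MMP28. Both shares were apart between the groups although neither gene passed the test on its own level. The ratio of FOS family to JUN family transcripts was 1.45, 1.30 and 1.25 in Vector and 2.50, 1.92 and 2.01 in OE-MMP28. These shares and ratios are descriptions, since an exact permutation test of 3 against 3 libraries cannot go below p = 0.1, and transcript sums say nothing of the amount or phosphorylation of the proteins.

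**Figure D3:**
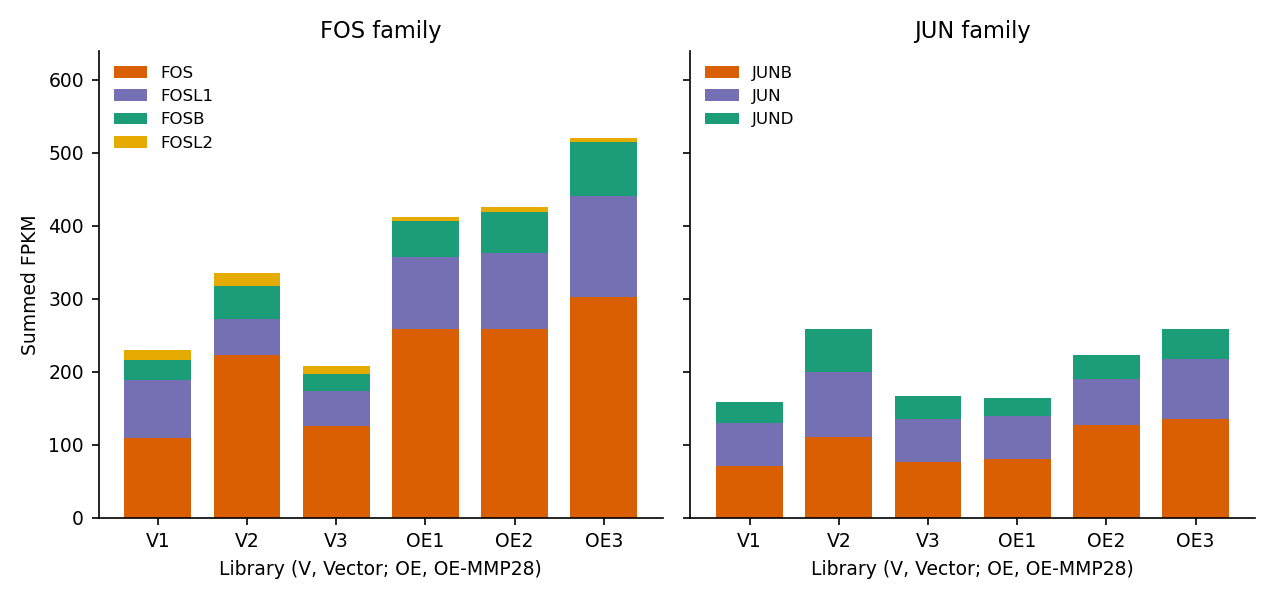
Summed FPKM of the FOS family (left) and the JUN family (right) in each library, V1 to V3 for Vector and OE1 to OE3 for OE-MMP28, with a coloured block for each gene. The FOS family reaches 412 FPKM or more in the OE-MMP28 libraries and at most 335 FPKM in Vector, the thin FOSL2 block shrinks, and the JUN family sums overlap.

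Libraries of the same group differed from each other in a way most of these genes shared. Vector replicate 2 was the highest of its group for 8 of the 10 genes, all but FOSL1 and EGR3, compared with 13 of 20 other immediate-early genes and 35.1% of all genes tested. OE-MMP28 replicate 3 was the highest of its group for 8 of the 10 genes, all but FOSL2 and EGR3, compared with 11 of 20 and 35.7%. The widest single departure was ATF3 in Vector replicate 2, at 0.97 above its group mean in log2 CPM (counts scaled to the library total), followed by JUND at 0.64 and FOS at 0.61.

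The correlation of these within-group departures was taken over the 6 libraries as a description. FOS went with EGR1 (Pearson's r = 0.96), FOSB with EGR1 (0.97) and JUN with JUND (0.99). FOS also had an r of 0.94 with JUND, 0.92 with ATF3, 0.91 with JUN and 0.74 with JUNB. In contrast, FOSL1 had an r of -0.30 with FOS and 0.18 with FOSB. FOSL1, which differed most clearly among the higher genes, did not share the departures of FOS in Vector. There FOSL1 was at 0.46, -0.18 and -0.28 in replicates 1, 2 and 3 and FOS at -0.41, 0.61 and -0.20. In OE-MMP28 both went the same way, FOSL1 at -0.21, -0.10 and 0.31 and FOS at -0.10, -0.06 and 0.16. Genes of a library share its scaling and depth, and the departures of each group sum to 0, so these values do not count as 6 independent points.

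**Figure D4:**
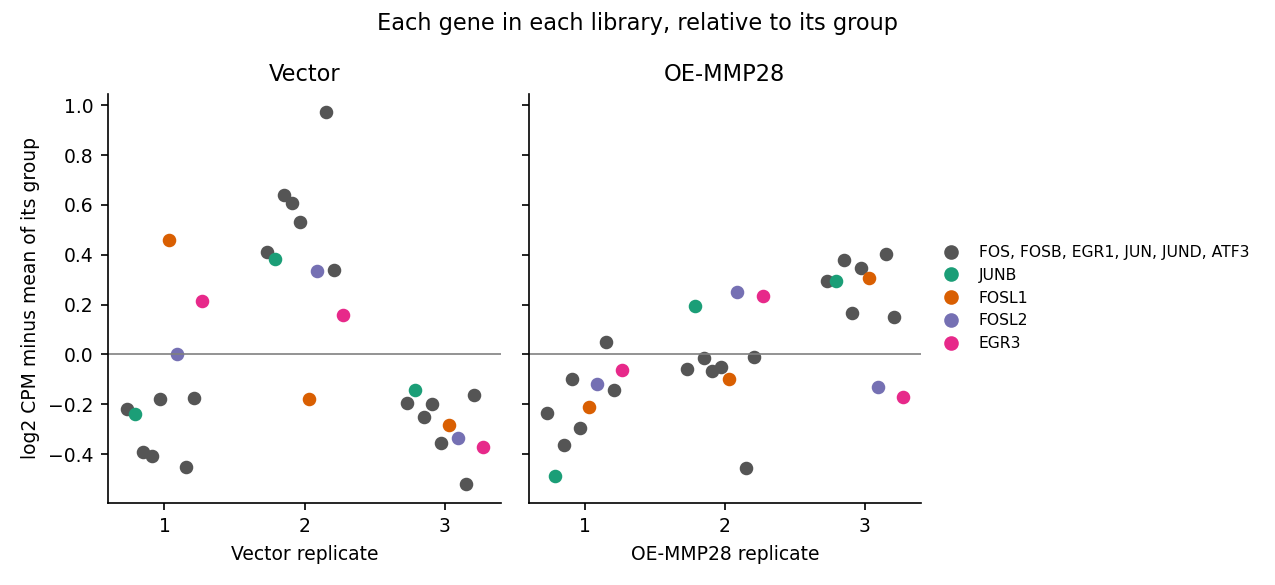
Departure of each gene from the mean of its own group in log2 CPM, by replicate, for Vector (left) and OE-MMP28 (right), with 1 point per gene. FOS, FOSB, EGR1, JUN, JUND and ATF3 (grey) all lie above 0 in Vector replicate 2, up to 0.97 for ATF3, and below 0 in replicates 1 and 3, whereas FOSL1 (orange) is highest in Vector replicate 1, at 0.46.

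Among 9986 genes with a mean of at least 3 log2 CPM, the 3 most like FOS over the 6 libraries were TSC22D3 (r = 0.989), RER1 (0.988) and RMI2 (0.982). For EGR1 they were PPP1R1B (0.995), RER1 (0.992) and CBY1 (0.992). FOSL1 was most like HLA-B (0.996), NTMT1 (0.996) and AJUBA (0.992). JUN was most like SSBP3 (0.991), GADD45B (0.988) and CDKN2AIPNL (0.983), of which GADD45B is itself a stress-induced gene. With 6 libraries in 2 groups, values this high are described only.

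The other genes of the pathway were taken from lists. Of 13 other basic leucine zipper genes (BATF, JDP2, ATF, MAF and CREB5), 9 were tested, 1 was higher and 0 were lower, with a median log2 difference of -0.32. Over all genes tested 11.7% were higher and 11.6% lower. The gene called was CREB5, which can pair with c-Jun, with 14, 19 and 7 reads in Vector and 79, 61 and 50 reads in OE-MMP28 (log2 difference 2.09, SE 0.38, adjusted p = 0.000580). It lay under the 1 FPKM that the rule for naming asked for and was named because it was the only call.

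EGR2 and EGR4 and the corepressors NAB1 and NAB2 were tested beside EGR1 and EGR3. EGR2 was higher, at 0.656, 1.36 and 0.497 FPKM in Vector and 1.71, 1.61 and 1.98 FPKM in OE-MMP28 (log2 difference 1.10, SE 0.31, adjusted p = 0.0145, edgeR). Its call was lost without Vector replicate 3 (0.83, adjusted p = 0.0781) and without OE-MMP28 replicate 3 (1.00, adjusted p = 0.0714). NAB1 was lower, at 33.6 ± 1.88 FPKM in Vector and 21.1 ± 2.67 FPKM in OE-MMP28 (SD, n = 3), with a log2 difference of -0.66 (SE 0.15, adjusted p = 0.00286). Relative to its local median of -0.33 the NAB1 difference was -0.33 and no longer passed the test (adjusted p = 0.133). NAB2, itself a target of EGR1, was at 10.1 ± 0.909 FPKM and 7.38 ± 1.21 FPKM (adjusted p = 0.0732).

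Of 21 kinases and transcription factors upstream of these genes 19 were tested, 1 was higher and 1 was lower, where 11.7% and 11.6% of all genes were, and their median was 0.12. MAPK8, which encodes JNK1, was lower, at 4.87, 4.47 and 5.32 FPKM in Vector and 3.83, 2.76 and 2.54 FPKM in OE-MMP28 (log2 difference -0.68, SE 0.17, adjusted p = 0.00778, edgeR). The median around it was -0.56, relative to which the difference was -0.12 (adjusted p = 0.698), and the call was also lost without OE-MMP28 replicate 2 (adjusted p = 0.0603). MAPK9, which encodes JNK2, had a log2 difference of 0.10 (adjusted p = 0.665). MAPK10, the gene of JNK3, had at most 4 reads in a library and was not tested.

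Of the kinases above JNK, MAP2K7 had a log2 difference of 0.13 (adjusted p = 0.643), and MAP2K4 had 1 read in Vector replicate 2, 1 read in OE-MMP28 replicate 3 and 0 in the rest. The ERK1 gene MAPK3 had a difference of 0.31 (adjusted p = 0.183), and the p38 gene MAPK14 one of 0.12 (adjusted p = 0.603). ELK3, an ETS partner of SRF, was higher (0.57, SE 0.15, adjusted p = 0.00746, edgeR). It no longer passed the test once OE-MMP28 replicate 2 was dropped (adjusted p = 0.0561). SRF itself stood at 0.23 (adjusted p = 0.355) and ELK1, another ETS partner, at 0.46 (adjusted p = 0.0559). The activity of these kinases is set by phosphorylation, which RNA does not measure.

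Of 22 immediate-early genes outside AP-1 and EGR 20 were tested, 6 were higher and 3 lower, where 11.7% and 11.6% of all genes were, with a median of 0.27. KLF2, a Krüppel-like factor, was at 12.6 ± 5.90 FPKM in Vector and 27.4 ± 5.26 FPKM in OE-MMP28 (SD, n = 3; log2 difference 1.14, adjusted p = 0.00219). SGK1 (0.98, adjusted p = 0.000591), CYR61 (0.68, adjusted p = 0.00264), DUSP1, KLF4 and GEM were the other higher genes, DUSP1 being a phosphatase of the MAP kinases. NR4A2, an orphan nuclear receptor, fell from 32.3 ± 5.07 FPKM to 15.9 ± 0.759 FPKM (log2 difference -1.01, adjusted p = 0.000114), and BTG2 (-0.79, adjusted p = 0.0190) and KLF6 were lower too. The neighbours of NR4A2 had a median of -0.63, and relative to it the difference was -0.39 (adjusted p = 0.0984); KLF4 and KLF6 also lost their calls in this way. The groups overlapped for BTG2, whose call was lost without Vector replicate 2 (-0.42, adjusted p = 0.166), OE-MMP28 replicate 2 (adjusted p = 0.0852) or OE-MMP28 replicate 3 (adjusted p = 0.0742). DUSP1, KLF4 and GEM each lost their call without at least 1 of the libraries.

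Of 16 genes known as AP-1 targets in other systems 13 were tested, 7 were higher and 1 lower, where 11.7% and 11.6% of all genes were, and the median was 0.52. The list was chosen with earlier results of these data known. MMP1, an interstitial collagenase and classic AP-1 target, was at 19.4, 17.6 and 13.4 FPKM in Vector and at 92.6, 70.3 and 74.1 FPKM in OE-MMP28, with a wide gap between the groups. Its log2 difference was 2.24 (SE 0.17, adjusted p = 2.18e-08, edgeR), and the median of its neighbours was 0.49. LIF, a cytokine (1.20, adjusted p = 1.37e-05), MMP10, a stromelysin (1.08, adjusted p = 0.0352), and CD44, a hyaluronan receptor (0.78, adjusted p = 0.000585), were also higher, as were CCND1 and TIMP1. The MMP10 call was lost without Vector replicate 3, OE-MMP28 replicate 1 or OE-MMP28 replicate 3 (adjusted p = 0.186, 0.127 and 0.127), and relative to its local median MMP10 differed by 0.60 (adjusted p = 0.288). CCND1 also lost its call relative to its local median and without some single libraries. MMP13 went from 0, 2 and 0 reads to 32, 19 and 30 reads, too few in Vector for a usable fold. CXCL8, which encodes IL-8, had 27, 49 and 29 reads in Vector and 40, 41 and 27 reads in OE-MMP28 (log2 difference -0.12, adjusted p = 0.850), and IL6 had 0 reads in all libraries.

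Of 8 genes known as EGR1 targets 7 were tested, 0 were higher and 2 lower, where 11.7% and 11.6% of all genes were, with a median of -0.37. Lower genes included F3, which encodes tissue factor, at 77.2 ± 6.97 FPKM in Vector and 37.0 ± 5.10 FPKM in OE-MMP28 (SD, n = 3; log2 difference -1.05, adjusted p = 5.39e-05). Of 10 genes for the turnover of AP-1 transcripts and proteins, all tested, 1 was higher, the deubiquitinase USP28 (0.50, adjusted p = 0.0268), and 0 were lower. Of all genes tested 11.7% were higher and 11.6% lower. Relative to its local median of 0.36, USP28 differed by 0.14 (adjusted p = 0.604), and without Vector replicate 2 or 3 or OE-MMP28 replicate 1 or 2 its adjusted p was 0.0582 to 0.147. Taken once each, the listed pathway genes numbered 91, of which 79 were tested. Of these, 17 were higher and 8 lower, where 11.7% and 11.6% of all genes were, with a median of 0.11. NAB2, ZFP36 and SRF stand in 2 lists each.

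**Figure D5:**
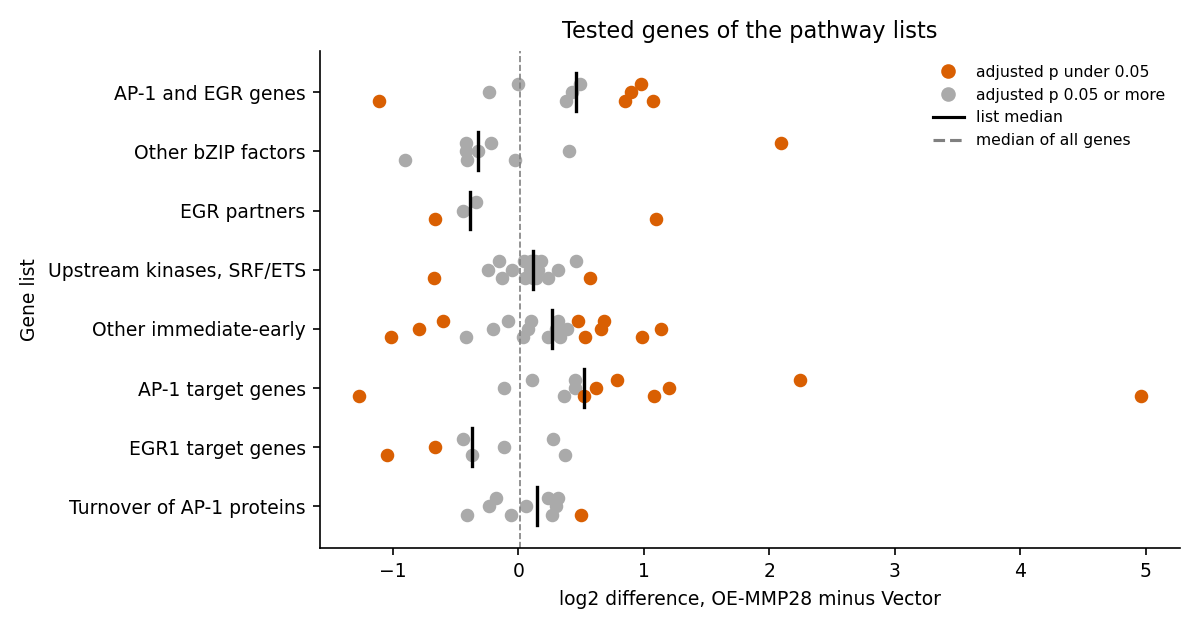
log2 difference, OE-MMP28 minus Vector, of each tested gene of the AP-1 and EGR set and of the 7 pathway lists (orange where the adjusted p was under 0.05, black line for the list's median, dashed line for the median of all genes, 0.01). The AP-1 targets have a median of 0.52 and the EGR1 targets one of -0.37, and the point near 5 is MMP13, which had 2 reads in all of Vector, so that its fitted value depends on the prior count.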

How the data were processed

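RNA of 3 Vector and 3 OE-MMP28 libraries (NEBNext Ultra kit, per the labels) was measured. The authors deposited whole-number read counts per gene, neither normalized nor pooled, and FPKM made from them. The submitters' processing notes name HISAT2 2.0.5 and featureCounts 1.5.0-p3. The strand setting and the handling of reads with several matches were not given in the sources used here. All 58735 identifiers and positions were those of GENCODE 29. The table also holds the authors' own group means, fold changes and p-values, which were not used.

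The 10 genes and the pathway lists were chosen with earlier results of these data known. Counts were tested with edgeR 4.0.16 in R 4.3.3 (filterByExpr, minimum count 10 and total 15; TMM scaling; quasi-likelihood test; Benjamini-Hochberg adjustment over 15319 genes; called at an adjusted p under 0.05). The model held the group alone. A local median covers the tested genes within 5 Mb on either side, at least 10 of them. From each list up to 5 called genes with the largest absolute difference and at least 1 FPKM were named singly, and the JNK, ERK and p38 pathway kinases, SRF, ELK1, NAB1 and NAB2 whatever their values. Some genes under this rule are counted in the lists but not reported here. Other called genes are named without full values. The study's methods name limma at p under 0.05 without naming the unit, and limma 3.58.1 on FPKM was run as an alternative with DESeq2 1.42.0, other scalings and filters, and each library left out, 18 alternatives in all. For these cells the study's results also asked for an absolute log fold change above 1. That cut was not applied here, so the counts of calls are not comparable with the study's. Scripts were tested on simulated data. No pair of libraries was a duplicate (chi-square of their counts at least 13.9 per degree of freedom).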

Additional observations from a re-analysis of the deposited data

How the results depend on the processing

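Counts of calls fell under limma on FPKM and moved with single libraries. Among the 10 AP-1 and EGR genes, the count higher went from 4 to 1 (limma on log2(FPKM + 1): FOSL1), 2 (pseudocount 0.1: FOS and FOSL1) and 0 (no filter), and the count lower from 1 to 0 (no filter); at an unadjusted p under 0.05 limma without the filter gave 4 higher and 1 lower, and edgeR, voom and DESeq2 called 4 higher and 1 lower. Leaving out 1 library gave 3 to 7 higher (7 without Vector replicate 2) and 1 lower. In the same order of limma fits, pathway genes higher went from 17 to 9, 9 and 4, and all genes higher from 1795 to 1009, 1000 and 362 and lower from 1784 to 965, 970 and 308; pathway genes lower went from 8 to 5 without the filter. The local-median offset gave 4 pathway genes lower and 1137 of all genes higher, and FOS lost its call. Leaving out 1 library gave 10 to 19 pathway genes higher and 6 to 10 lower, and 985 to 1916 of all genes higher and 1044 to 1949 lower, lowest without OE-MMP28 replicate 2 (985 and 1044), with 1136 higher and 10 pathway genes higher without Vector replicate 3. MMP28 was at 0.84 (adjusted p = 0.0903) under limma without the filter. The cause of these changes was not tested.

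JUN, not called in any fit, changed sign under voom (0.0098) and, leaving out 1 library, ranged from -0.16 to 0.23; JUND ranged from -0.44 to 0.16. The difference in family share ranged from -3.19 to 6.09 percentage points for FOS and from -3.23 to 6.36 for FOSL1, lowest without Vector replicates 1 and 2, respectively.

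With the replicate number as a block, 5 of the 10 genes were higher and 1 lower (ATF3 gained, 0.63, adjusted p = 0.0262), JUN was at 0.0076 and all genes gave 1844 higher and 1841 lower. The deviations of same-numbered libraries had an r of 0.017, 0.0080 and -0.088, and those of differently numbered libraries ranged from -0.148 to 0.167. With 3 libraries per group these values cannot show whether same-numbered libraries shared a culture or a batch. No pairing was given in the sources used here.

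EGR3 (16 to 57 reads) and CREB5 (7 to 79 reads) rest on few counts. Of 178 alternative values for the 10 genes, 156 kept their direction and side of the threshold.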
